A study of Mus musculus with 13 samples.

Results

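Homeostatic microglia carry a set of surface and secreted proteins that are widely used to tell them from other brain cells. Their genes Tmem119, P2ry12, P2ry13, Gpr34, Siglech, Cx3cr1, Selplg, Olfml3 and Fcrls were followed here in the brains of mice fed cuprizone (CPZ), a copper chelator in the chow that selectively injures oligodendrocytes and leads to demyelination. The 9 genes were taken by name from the gene annotation, where each name had 1 row, out of 55401 gene identifiers. All 9 passed the filter on low counts, which left 14985 genes for testing.

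Bulk RNA-seq libraries were made from 1 frozen brain hemisphere per mouse. The animals were male wild-type C57BL/6J mice, listed as 6 to 8 weeks old. The CTL group (n = 5) ate control chow for 6 weeks. The CPZ group (n = 4) ate chow with 0.3% cuprizone for 4 weeks and was collected at week 4. The recovery group (RCV, n = 4) ate the same cuprizone chow for 4 weeks and control chow for 2 weeks, and was collected at week 6 like the CTL group. "Veh" stands at the start of each RCV library's title, but the treatment label gives recovery, and the group was taken from that label. Cuprizone feeding in the CPZ group and collection 2 weeks earlier cannot be told apart. Both the CPZ and the RCV group were compared with the same CTL libraries, so those comparisons are not independent of each other.

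Microglia are the resident macrophages of the brain. In the undisturbed brain they scan their surroundings with motile processes, guided by receptors for nucleotides, lipids, chemokines and sialic acids, and their resting state depends on TGF-beta signalling. In demyelinating lesions microglia multiply, take up myelin debris and turn on a disease-associated gene set, a state in which lower levels of several homeostatic genes per cell have often been described.

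The libraries held between 4605100 and 8197289 estimated counts each. The 9 genes together took 0.0155% to 0.0186% of the counts in CTL libraries, 0.0409% to 0.0836% in CPZ libraries and 0.0196% to 0.0226% in RCV libraries. The myelin genes Mog and Mag of mature oligodendrocytes fell in the CPZ group, with log2 fold changes of -1.51 and -1.29 against CTL (edgeR adjusted p = 0.00472 and 0.00323). Neuronal markers (Snap25, Syt1 and Rbfox3) summed to between 2700 and 3573 CPM (counts scaled to one common library size) in every library, and none of them was called. Astrocyte markers moved with the members in the CPZ group, where Gfap (log2 2.43, adjusted p = 5.29e-07), Aqp4 (0.54, adjusted p = 0.000363) and Aldh1l1 (0.39, adjusted p = 0.00297) all rose, and Gfap (1.80, adjusted p = 0.000109) and Aqp4 (0.44, adjusted p = 0.0384) were still higher in RCV than in CTL mice. The summed level of these 3 was 289 to 378 CPM in CTL, 1037 to 1260 CPM in CPZ and 678 to 990 CPM in RCV libraries, and the part of this change in the members' levels was not tested. Of the endothelial markers Cldn5, Pecam1 and Flt1, Cldn5 was lower in RCV than in CTL mice (-0.68, adjusted p = 0.0263) and no other call was made. Choroid plexus markers (Ttr, Kl and Folr1) summed to between 8.24 and 2646 CPM, and this sum varied widely within each group.

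The members lie on 5 chromosomes of the mm10 build, and 4 of them form 2 close pairs. P2ry13 (chr3:59207892-59210882, minus strand) and P2ry12 (chr3:59216272-59262871, minus strand) are 5390 bases apart, both inside Med12l on the opposite strand. Tmem119 (chr5:113793729-113800516, minus strand) and Selplg (chr5:113818536-113832644, minus strand) are 18020 bases apart. Fcrls (chr3:87250758-87263738) and Olfml3 (chr3:103722222-103738001) are on the minus strand of the same chromosome as the P2ry pair. Cx3cr1 (chr9:119901616-120069879) is on the minus strand, and Siglech (chr7:55768178-55778925) and Gpr34 (chrX:13632089-13640858, inside Cask) are on the plus strand. All 9 are protein-coding.

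None of the 12 tested genes that overlap or flank a member, and are not members themselves, was called in any contrast. The highest log2 fold change between CPZ and CTL was that of Luzp2 beside Siglech (0.43, SE 0.13; adjusted p = 0.0594). Med12l, which shares 9 exonic bases with P2ry12 and none with P2ry13, had a log2 fold change of -0.17 between CPZ and CTL (SE 0.09; edgeR adjusted p = 0.314). Cask, the host of Gpr34, had one of -0.07 (adjusted p = 0.611), and Coro1c and Iscu, which flank the Selplg and Tmem119 pair, had 0.06 and 0.04 (adjusted p = 0.696 and 0.855). The antisense gene Gm33858 shares 78 exonic bases with Cx3cr1 and held 1 to 5 counts per library. Whether the counting used strand is not given in the sources used here, so reads from these shared bases cannot be assigned.

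RefSeq promoter windows were at hand for P2ry12, P2ry13, Siglech, Cx3cr1, Olfml3 and Fcrls, and the 250 bases before the start site were searched on both strands for 7 short motifs. PU.1, encoded by Spi1, is the lineage factor of macrophages and microglia, and its motif GAGGAAG was found in 2 of the 6 windows (P2ry13 and Fcrls) and in 10.6% of all 32851 promoters. The RUNX motif TGTGGTT was in the windows of Fcrls and Siglech (4.4% of all promoters), the MEF2 motif in that of Cx3cr1 (3.2%) and TATAAA in that of Fcrls (12.4%). No member's window held the composite motif of PU.1 with IRF (2.3% of all promoters), the AP-1 motif TGANTCA (6.75%) or the SMAD motif GTCTAGAC (0.167%). The windows of P2ry13 and Olfml3 are shown because their start sites coincide in RefSeq and in the GENCODE annotation, and because they stand for a member with a motif match and one without. The capitals mark GAGGAAG, whose first base is 48 bases before the P2ry13 start site (RefSeq, GRCm38.p6, chr3:59210883-59211132 and chr3:103738002-103738251, both read on the minus strand).
P2ry13: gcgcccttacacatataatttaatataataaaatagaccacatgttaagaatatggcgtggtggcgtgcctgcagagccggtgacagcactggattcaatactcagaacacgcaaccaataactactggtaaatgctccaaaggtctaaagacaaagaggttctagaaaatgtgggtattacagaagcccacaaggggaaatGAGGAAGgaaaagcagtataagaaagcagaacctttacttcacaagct
Olfml3: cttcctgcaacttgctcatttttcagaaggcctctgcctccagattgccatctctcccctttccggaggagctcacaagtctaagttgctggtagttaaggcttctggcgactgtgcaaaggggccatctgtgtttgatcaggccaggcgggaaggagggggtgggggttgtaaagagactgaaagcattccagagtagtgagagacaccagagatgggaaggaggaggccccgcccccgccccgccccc
Both windows belong to genes that rose in the CPZ group, as described next.

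All 9 members were upregulated in the CPZ group. The edgeR test called 9 of 9 higher than in the CTL group, against 7.66% of all genes tested, and in 9 of 9 the CPZ libraries lay entirely above the CTL libraries, against 8.25% of all genes. Their median log2 fold change was 1.36, against -0.02 over all genes, and single members ran from 0.97 for P2ry12 to 3.41 for Fcrls. In bulk tissue, more microglia and more RNA per cell cannot be told apart, and this holds for every level below. From the CPZ to the RCV group 9 of 9 members fell, against 5.13% of all genes called lower, and the libraries of 8 of 9 did not overlap, against 8.26% of all genes.

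Between the RCV and the CTL group, 0 of 9 members were called, and 0.36% of all genes were called higher. DESeq2 and limma-voom also called none, and 2 members, Cx3cr1 and Fcrls, had an unadjusted p below 0.05. Those 2 were also the only members whose RCV libraries lay entirely above the CTL libraries, as 2.21% of all genes did. When only the RCV and CTL libraries were fitted, both were called (adjusted p = 0.0196 for Cx3cr1 and 0.0167 for Fcrls). The median log2 fold change of the 9 members was 0.37, and 8 of 9 were above 0, of which P2ry12, at 0.01, turned negative under 6 alternatives such as log2(TPM + 1) (-0.042).

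**Figure D1:**
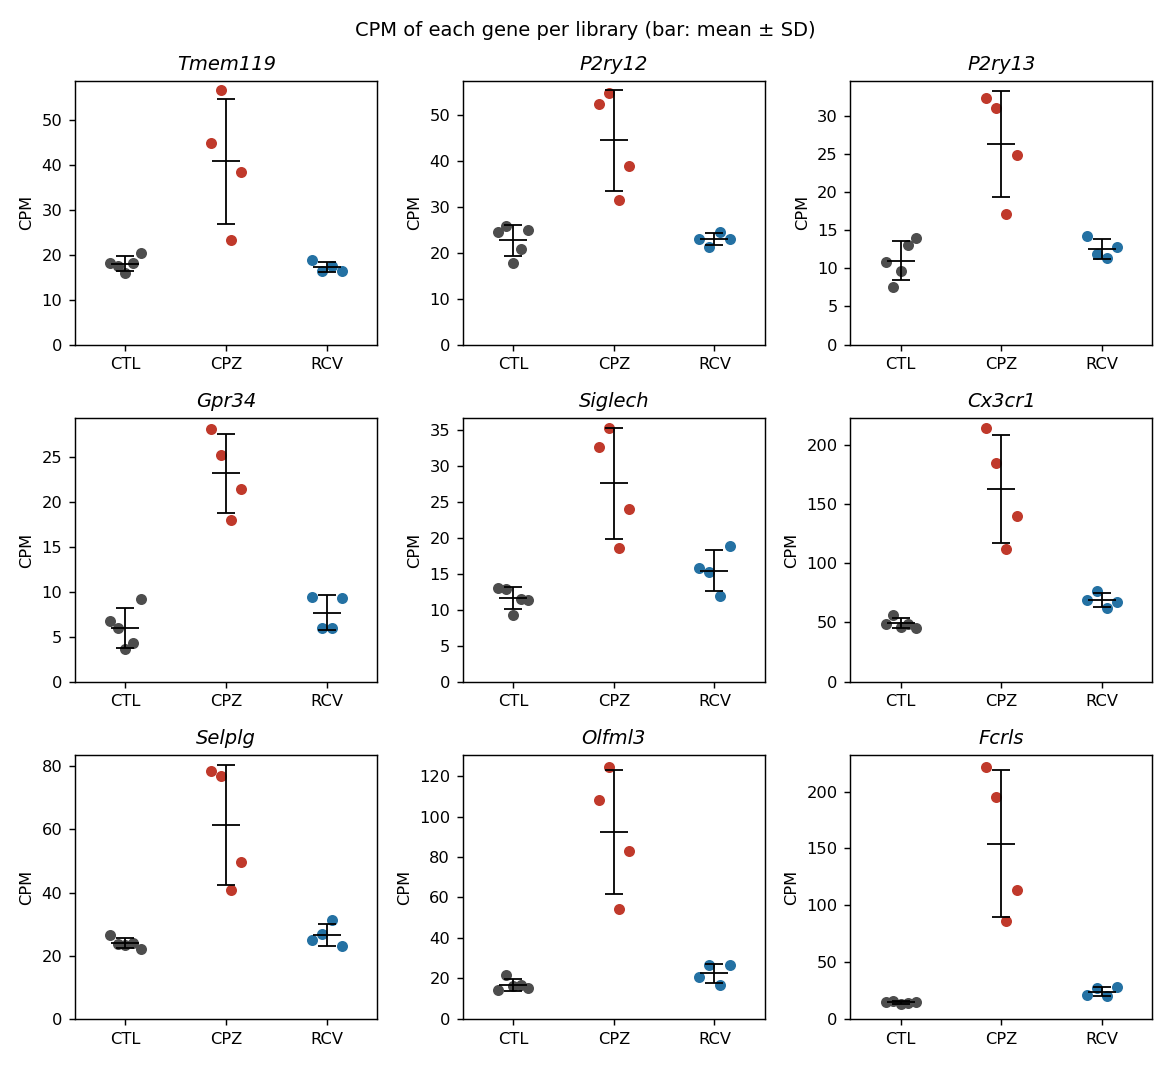
CPM of the 9 genes in each library, 1 panel per gene with its own linear axis from 0; points are libraries and bars are the mean ± SD of the CTL (n = 5), CPZ (n = 4) and RCV (n = 4) groups. Every CPZ point is above every CTL point in all 9 panels. The RCV points lie above all CTL points for Cx3cr1 and Fcrls, and overlap with them in the other panels.

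P2ry12 encodes a Gi-coupled receptor for ADP that steers microglial processes to sites of damage. It was measured at 24.6, 25.8, 17.8, 20.8 and 24.9 CPM in CTL replicates 1 to 5, at 52.4, 54.9, 31.6 and 39.0 CPM in CPZ replicates 1 to 4, and at 23.0, 21.4, 24.6 and 23.0 CPM in RCV replicates 1 to 4. The CPZ libraries were all higher than the rest, and the RCV libraries sat inside the CTL range. The CPZ level was 1.95-fold that of CTL (log2 0.97, SE 0.15; adjusted p = 0.000394), the smallest rise of the 9. From CPZ to RCV the level fell 1.94-fold (adjusted p = 0.00198). RCV and CTL differed by a log2 fold change of 0.01, with a 95% interval from -0.33 to 0.36, and by -0.064 without CTL replicate 3.

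P2ry13, the neighbouring gene, encodes a second ADP receptor of the same family. It was measured at 10.9, 7.50, 9.68, 12.996 and 13.9 CPM in the CTL libraries, at 32.3, 31.0, 17.1 and 24.9 in the CPZ libraries and at 14.2, 11.8, 11.4 and 12.8 in the RCV libraries. Again the CPZ libraries did not overlap with the others, although CPZ replicate 3 came within a few CPM of the highest RCV library. The rise was 2.40-fold (log2 1.26, SE 0.19; adjusted p = 0.000263) and the fall from CPZ to RCV 2.09-fold (adjusted p = 0.00418). The RCV to CTL difference was 0.20 on the log2 scale (95% interval -0.24 to 0.64).

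Gpr34 encodes a receptor for lysophosphatidylserine, a lipid released when cell membranes are broken down. Its CTL libraries were at 6.80, 6.00, 3.69, 4.28 and 9.17 CPM, its CPZ libraries at 28.1, 25.2, 18.0 and 21.4 and its RCV libraries at 9.38, 5.99, 5.97 and 9.32. This was the least abundant member in counts, with as few as 24 counts in a CTL library, and its CTL libraries spread more widely in proportion than those of the other members. The CPZ libraries were still far above both other groups, 3.89-fold above CTL (log2 1.96, SE 0.22; adjusted p = 1.92e-05). Gpr34 fell 3.02-fold from CPZ to RCV (adjusted p = 0.000752), and the RCV to CTL difference of 0.37 had an interval from -0.17 to 0.90.

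Cx3cr1 encodes the receptor of fractalkine, the chemokine that neurons display and shed. It had 48.7, 56.4, 46.6, 48.9 and 45.5 CPM in CTL mice, 213.8, 184.1, 111.5 and 139.7 CPM in CPZ mice and 69.3, 76.6, 62.2 and 67.2 CPM in RCV mice. The 3 groups were fully apart, with RCV between the others. The rise was 3.29-fold (log2 1.72, SE 0.15; adjusted p = 6.52e-06) and the later fall 2.35-fold (adjusted p = 0.000568). The RCV level was 1.40-fold that of CTL (95% interval of the log2 difference 0.14 to 0.83), which did not pass the adjustment over all genes (adjusted p = 0.42).

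Siglech encodes a sialic acid-binding lectin that signals through the adaptor encoded by Tyrobp. In the CTL libraries it was at 13.05, 12.9, 9.22, 11.5 and 11.4 CPM, in the CPZ libraries at 32.7, 35.2, 18.6 and 24.0 and in the RCV libraries at 15.8, 15.2, 11.9 and 18.9. It was the only member whose RCV and CPZ libraries overlapped, because RCV replicate 4 was just above CPZ replicate 3. The level rose 2.38-fold (log2 1.25, SE 0.18; adjusted p = 0.000171). It then fell 1.79-fold (adjusted p = 0.012), the smallest fall of the 9, and this call was lost when TPM values were tested with limma (adjusted p = 0.0617, 0.0682 and 0.113 under 3 settings). The RCV to CTL difference of 0.41 had an interval from -0.00 to 0.82.

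Selplg encodes PSGL-1, a mucin-like ligand of the selectins. The CTL libraries held 26.5, 23.7, 23.5, 24.0 and 22.0 CPM, the CPZ libraries 78.5, 76.8, 40.8 and 49.8 and the RCV libraries 25.1, 26.7, 31.2 and 23.2. The CPZ libraries stood apart, in 2 higher and 2 lower ones, and 2 of the 4 RCV libraries lay above the highest CTL library. The rise was 2.56-fold (log2 1.36, SE 0.17; adjusted p = 9.04e-05) and the fall 2.32-fold (adjusted p = 0.00123). RCV and CTL differed by 0.15 on the log2 scale (95% interval -0.25 to 0.54).

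Tmem119 encodes a single-pass membrane protein that is used as a marker of resident microglia. It was at 18.2, 17.6, 16.0, 18.2 and 20.5 CPM in CTL mice, at 45.1, 56.8, 23.3 and 38.6 CPM in CPZ mice and at 18.9, 16.4, 17.5 and 16.5 CPM in RCV mice. CPZ replicate 3 came closest to the CTL range, though still above it, and the RCV libraries sat within the CTL range. The rise was 2.27-fold (log2 1.18, SE 0.19; adjusted p = 0.00066) and the fall 2.36-fold (adjusted p = 0.00204). The log2 difference between RCV and CTL was -0.06 (95% interval -0.50 to 0.39).

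Fcrls encodes a scavenger receptor-like relative of the Fc receptors. It was measured at 14.5, 16.1, 13.5, 13.6 and 14.9 CPM in the CTL libraries, at 221.6, 195.6, 86.2 and 113.1 CPM in the CPZ libraries and at 21.0, 27.1, 20.2 and 28.2 CPM in the RCV libraries. The 3 groups were fully apart, and even the lowest CPZ library was several times the highest CTL library. The rise of 10.6-fold was the largest of the 9 (log2 3.41, SE 0.27; adjusted p = 4.78e-06), as was the fall of 6.41-fold (adjusted p = 0.000301). The RCV level was 1.65-fold that of CTL (95% interval of the log2 difference 0.08 to 1.37; adjusted p = 0.695).

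Olfml3 encodes a secreted olfactomedin-like glycoprotein. Its CTL libraries held 14.4, 21.9, 16.1, 16.8 and 15.2 CPM, its CPZ libraries 108.0, 124.7, 54.4 and 83.0 and its RCV libraries 20.5, 26.4, 16.7 and 26.5. CPZ libraries were all above the others, and the RCV libraries overlapped with those of CTL. The rise was 5.47-fold (log2 2.45, SE 0.23; adjusted p = 1.18e-05) and the fall 4.11-fold (adjusted p = 0.000428). RCV and CTL differed by 0.41 on the log2 scale (95% interval -0.14 to 0.96).

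**Figure D2:**
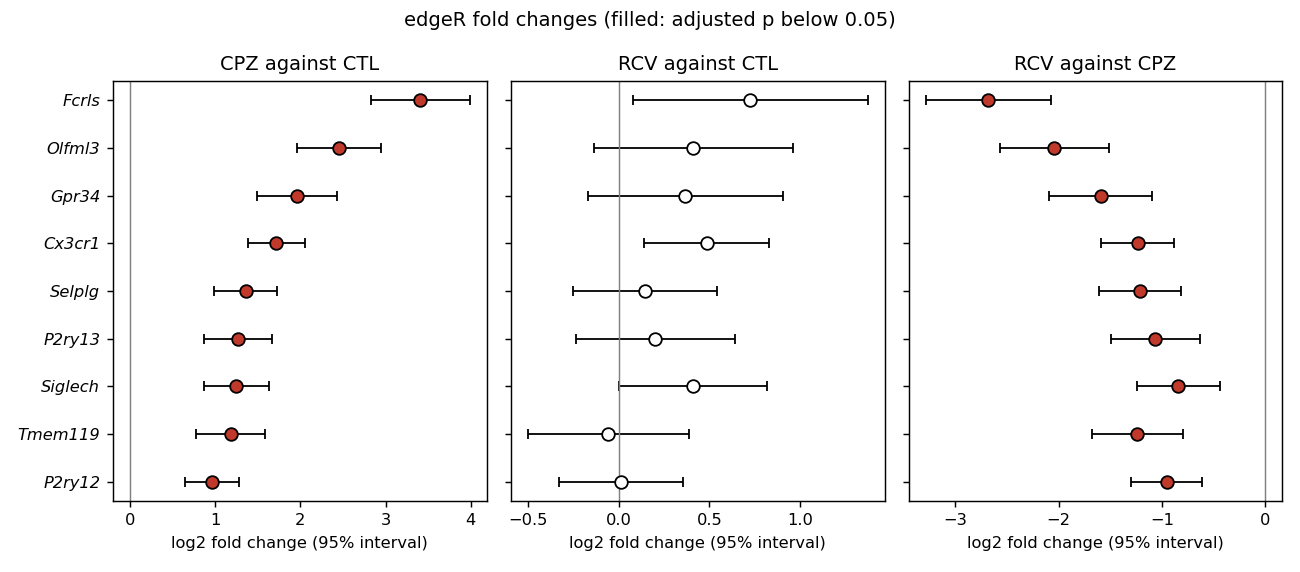
Log2 fold changes of the 9 genes (x axis) in the 3 contrasts, 1 panel each with its own scale, ordered by the CPZ against CTL value; horizontal bars are 95% intervals and filled points have an adjusted p below 0.05. All 9 points are filled in the CPZ against CTL and RCV against CPZ panels and none in the RCV against CTL panel, where Cx3cr1 and Fcrls have intervals above 0.

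CPZ replicate 3 was the lowest of the CPZ libraries for each of the 9 members. The mean log2-CPM of 8 general myeloid genes was also lowest there, at 5.31 against 5.66 to 6.22 in the other CPZ libraries. Without this library the fold changes were larger, and without any single one of the 13 libraries all 9 rises and all 9 falls were still called.

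**Figure D3:**
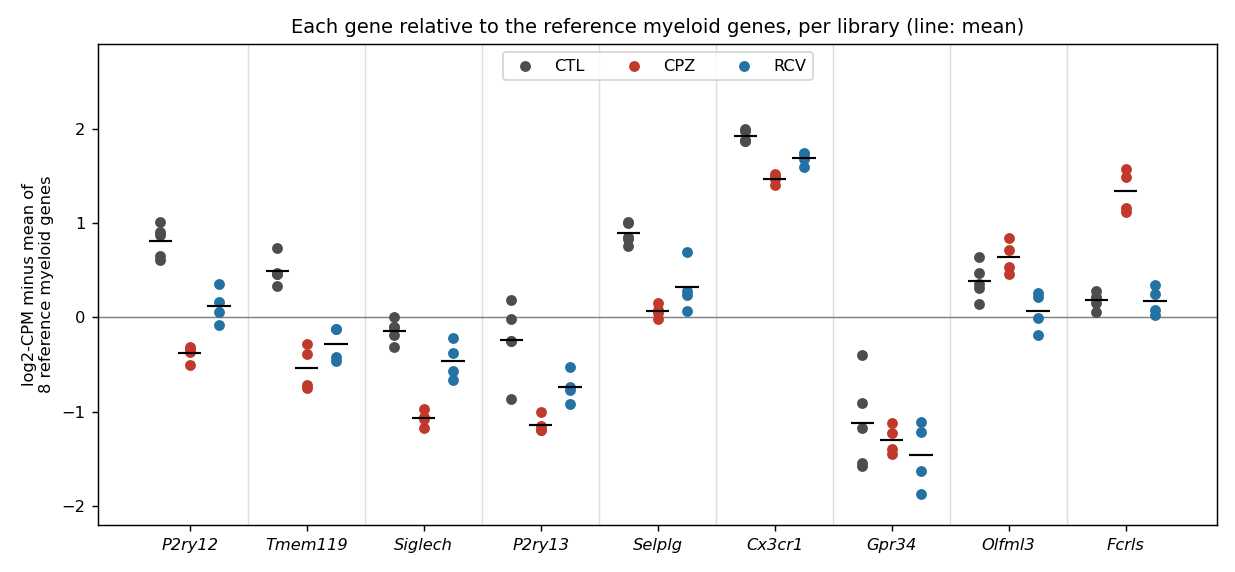
Each gene's log2-CPM minus the mean log2-CPM of the 8 reference myeloid genes (y axis), in every CTL, CPZ and RCV library; points are libraries and black lines are group means. CPZ points lie below CTL points for P2ry12, Tmem119, Siglech, P2ry13, Selplg and Cx3cr1, overlap with them for Gpr34 and Olfml3, and lie above them for Fcrls.

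Relative to genes of the same cell lineage, the members split. The reference was the mean log2-CPM of Csf1r, Spi1, Irf8, Aif1, Itgam, Ptprc, Laptm5 and Coro1a, which rose by 2.13 on the log2 scale from CTL to CPZ. By exact two-sided permutation tests, each unadjusted among 27 comparisons and with a smallest possible p of 0.0159 for 4 against 5 mice, 6 of 9 members were lower against this reference in the CPZ group and 1 was higher, counting those with no overlap between the libraries. As the reference rose, 95.2% of all genes tested also lay lower against it without overlap, so the 6 are fewer than the background would give, and 0.514% of all genes lay higher, as Fcrls did. Relative to the reference P2ry12 changed by -1.19, from 0.81 ± 0.17 (SD, n = 5) to -0.38 ± 0.08 (n = 4), with an exact p of 0.0159. Tmem119 (-1.03), Siglech (-0.93), P2ry13 (-0.90), Selplg (-0.83) and Cx3cr1 (-0.45) had the same exact p of 0.0159. Such a split was not particular to the members. Without overlap, 11 of 17 other homeostatic microglia genes tested lay lower and 1 higher. Of 13 disease-associated genes 4 lay lower and 6 higher, and of the 8 reference genes themselves 2 lay lower and 2 higher.

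Fcrls went the other way and rose by 1.15 above the reference, from 0.18 ± 0.08 to 1.34 ± 0.23 (exact p = 0.0159). For Olfml3 (0.26, exact p = 0.0952) and Gpr34 (-0.18, exact p = 0.571) the CPZ and CTL libraries overlapped relative to the reference. One reference gene, Coro1a, had not itself been called between CPZ and CTL (log2 0.33, adjusted p = 0.107), while the other 7 had risen, Csf1r by 1.83 and Ptprc by 3.05. Without Coro1a the reference rose by 2.38, still 6 members lay lower and Fcrls higher, and the change of Olfml3 became -0.00. Against the C1q genes C1qa, C1qb and C1qc, which rose by 2.70 to 3.01, Olfml3 was also lower (-0.44) and Fcrls still higher (0.46). The shares of all genes lying lower or higher against these other references were not calculated.

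In the RCV group the reference was still 0.71 above CTL, and 4 of 9 members lay lower against it than in CTL mice with no overlap of the libraries, where 71.8% of all genes did and 0.3% lay higher, none of them a member. These were Tmem119 (-0.77), P2ry12 (-0.69), Selplg (-0.57) and Cx3cr1 (-0.23), each with an exact p of 0.0159. Siglech was also lower (-0.32, exact p = 0.0317), with libraries that overlapped. With Coro1a left out of the reference 6 members lay lower, and with the C1q genes as the reference 7 did. For Fcrls the difference from CTL relative to the reference was -0.01 (exact p = 0.952), with means of 0.18 ± 0.15 in RCV and 0.18 ± 0.08 in CTL mice.

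From CPZ to RCV the reference fell by 1.41. Fcrls (-1.16) and Olfml3 (-0.57) fell further than the reference, in libraries that did not overlap, as 0.287% of all genes did. Siglech (0.61), P2ry12 (0.50), P2ry13 (0.40) and Cx3cr1 (0.22) rose against it, as 88.8% of all genes did. Each of these 6 had an exact p of 0.0286, the smallest that 4 against 4 mice allow. Against the C1q genes only Fcrls still fell further, and the groups overlapped for Olfml3. The share of all genes that fell further than the C1q genes was not calculated.

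The members also differed among themselves, by exact permutation tests that were unadjusted among a further 27 comparisons. Set against the mean of the other 8 members in the same library, Fcrls rose by 1.81 and Olfml3 by 0.80 in the CPZ group, while P2ry12 (-0.83), Tmem119 (-0.64), Siglech (-0.53) and Selplg (-0.42) fell, each with an exact p of 0.0159. The groups overlapped for Cx3cr1 (0.005, exact p = 0.952), P2ry13 (-0.50, exact p = 0.0794) and Gpr34 (0.31, exact p = 0.222). In RCV mice Fcrls was still 0.46 higher against the other members than in CTL mice, and Tmem119 was lower (log2 difference -0.40), each with an exact p of 0.0159. P2ry12 was lower too (-0.31, exact p = 0.0476), with libraries that overlapped. For every member but Fcrls that mean of 8 includes Fcrls, so its strong rise enters each of these falls.

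Levels between genes were compared in TPM, which is scaled per transcript length. In CTL brains the median TPM ran from 36.1 for P2ry12 through 30.4 for Selplg, 27.7 for Cx3cr1, 17.4 for Tmem119, 16.4 for Siglech, 14.5 for Fcrls, 9.14 for P2ry13 and 7.66 for Olfml3 to 6.57 for Gpr34. Among neighbours in this order, Cx3cr1 was above Tmem119, Siglech above Fcrls and Fcrls above P2ry13 in all 5 libraries, and the other neighbouring pairs were not separated in every library. In the CPZ group Fcrls moved to the top.

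In CPZ brains the median TPM was 159 for Fcrls, 93.7 for Cx3cr1, 79.3 for Selplg, 69.3 for P2ry12, 44.2 for Olfml3, 39.5 for Tmem119, 38.1 for Siglech, 25.7 for Gpr34 and 23.2 for P2ry13. Every neighbouring pair kept its order in all 4 CPZ libraries except Tmem119 and Siglech, which held it in 2 of 4. In RCV brains the order was Cx3cr1 at 40.2, Selplg at 31.8, P2ry12 at 31.3, Fcrls at 24.9, Siglech at 22.4, Tmem119 at 17.0, Olfml3 at 11.1, P2ry13 at 10.4 and Gpr34 at 8.35. P2ry12 was above Fcrls, Tmem119 above Olfml3 and P2ry13 above Gpr34 in all 4 RCV libraries, and the other neighbours were not separated in every library.

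**Figure D4:**
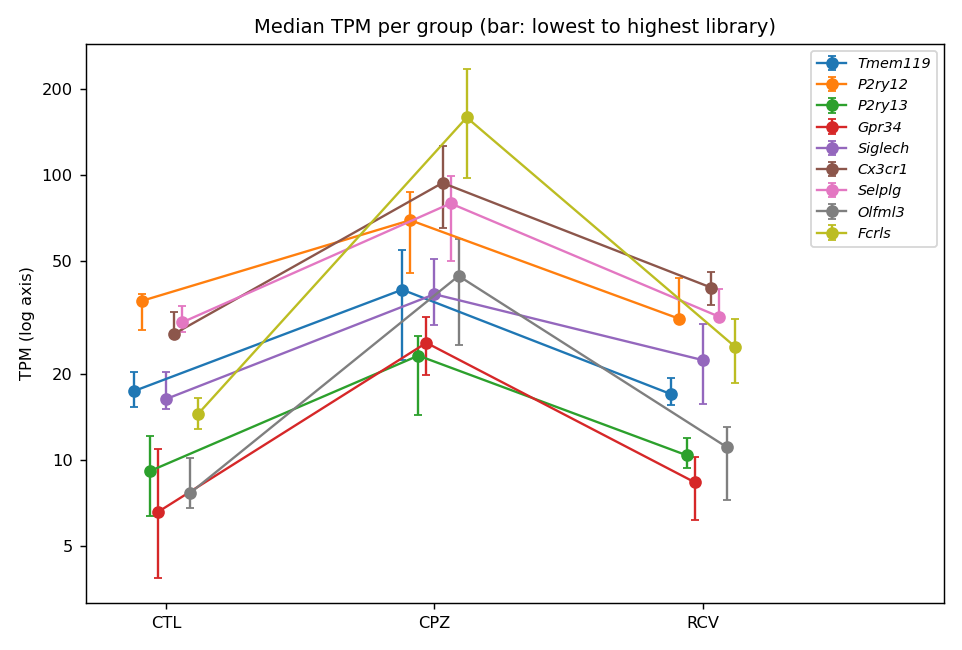
Median TPM of each gene (y axis, log scale) in the CTL, CPZ and RCV groups; vertical bars run from the lowest to the highest library of the group. Fcrls goes from 14.5 to 159 TPM and back to 24.9, crossing the lines of 5 other members, while P2ry12 goes from the top place at 36.1 TPM to place 4 at 69.3.

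Fcrls made up 8.71% of the summed TPM of the 9 members in the median CTL library, 27.4% in the CPZ group and 12.5% in the RCV group. P2ry12 made up 20.9%, 12.2% and 15.3%. The share of Cx3cr1 hardly moved, at 17.3%, 17.2% and 19.4%. The ratio of counts to TPM, which reflects the transcript length assumed for each gene, overlapped between the groups for the members. For Cx3cr1 it lay between 1.28 and 1.35 relative to the median gene in all libraries.

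Most of the rise seen in CPZ mice was gone in RCV mice for every member. On the log2 scale, the distance of each RCV mouse from the CTL mean was divided by the distance between the CPZ and CTL means. Tmem119 (-0.055 ± 0.087, SD, n = 4) and P2ry12 (0.026 ± 0.088) were within 1 SD of the CTL mean. Selplg (0.109 ± 0.138), Olfml3 (0.168 ± 0.132), P2ry13 (0.173 ± 0.114), Gpr34 (0.193 ± 0.184) and Fcrls (0.216 ± 0.074) had higher means. Single libraries moved several of these shares. With each library left out in turn Tmem119 ran from -0.098 to -0.012 and P2ry12 from -0.070 to 0.073. The share was 0.047 for Selplg without RCV replicate 3, 0.079 for P2ry13 without CTL replicate 2 and 0.128 for Gpr34 without CTL replicate 3. These were the lowest values, and the highest with a library left out were 0.156 for Selplg, 0.231 for P2ry13 and 0.256 for Gpr34.

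Cx3cr1 (0.288 ± 0.074) and Siglech (0.332 ± 0.223) retained the largest shares, but for Siglech single mice ran from 0.042 to 0.583. On a linear CPM scale the order changed. Siglech (0.241) and Cx3cr1 (0.174) were still highest, P2ry13 (0.101) and Gpr34 (0.098) came next, and Olfml3 (0.074), Selplg (0.069) and Fcrls (0.069) were all above P2ry12 (0.0097) and Tmem119 (-0.034). Of the reference genes that had risen, Itgam retained 0.162 ± 0.028 and Ptprc 0.516 ± 0.074, and the other 5 lay between. Within their spread the members from Selplg to Siglech did not form separate steps.

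**Figure D5:**
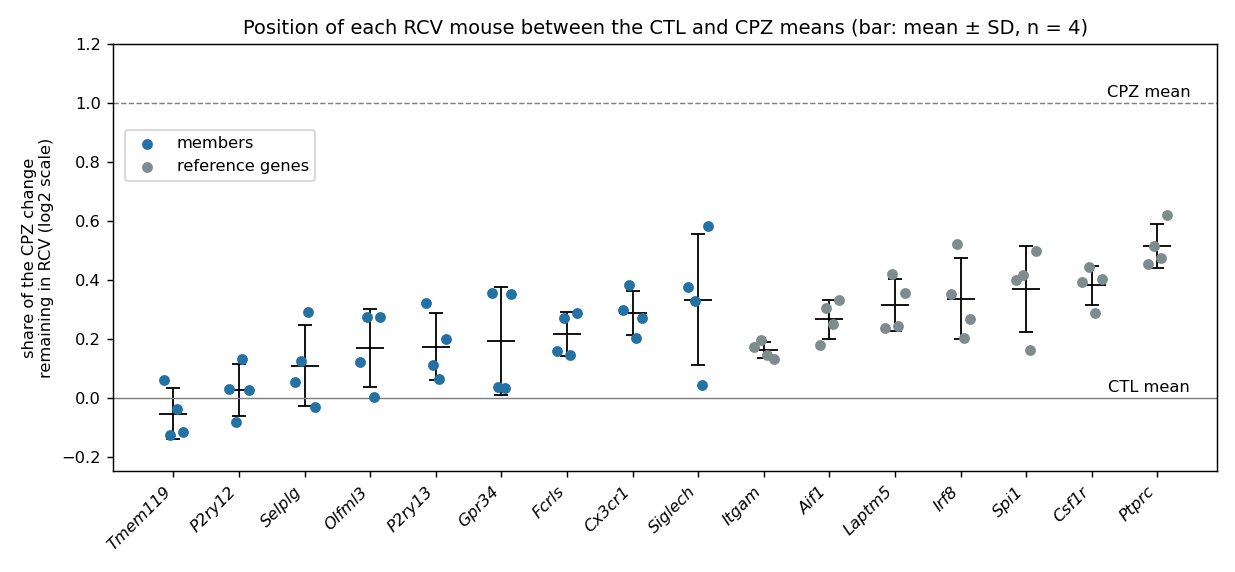
Share of the CPZ change remaining in each of the 4 RCV mice (y axis, log2 scale; 0 is the CTL mean and 1 the CPZ mean) for the 9 members in blue and 7 reference genes in grey; bars are the mean ± SD. Tmem119 and P2ry12 sit near 0, and of the genes shown Ptprc has the highest mean, 0.516.

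Across the 13 libraries the 9 members rose and fell together, with pairwise Pearson r of log2-CPM no lower than 0.869 (Selplg and Gpr34). These correlations describe libraries of 3 groups with large differences between them, so they mostly carry the group pattern. The non-member most like a member was sought over 14122 sufficiently expressed genes (mean log2-CPM of 1 or more). Olfml3 was closest to AI506816 (r = 0.992), Siglech to Vav1 (0.983), Selplg to Ctsa (0.975) and Gpr34 to Havcr2 (0.961). P2ry12 was closest to Abhd12 (0.974), and Tmem119 and P2ry13 both to Pfn1 (0.970 and 0.966). The log2 fold changes of Pfn1 and Abhd12 between CPZ and CTL were 0.38 and 0.29.

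Direct partners of the members moved unevenly. Of 19 partner genes 15 were tested, and 8 were higher in the CPZ group, none lower. Cx3cl1, the ligand of Cx3cr1, was at 603 ± 47 CPM in CTL mice and 542 ± 12 in CPZ mice, a log2 difference of -0.15 that was not called (adjusted p = 0.221). The sheddases that can release it rose modestly, Adam17 by 0.66 (adjusted p = 0.00114) and Adam10 by 0.29 (adjusted p = 0.00419). Tyrobp, the adaptor of Siglech, rose by 3.46 (adjusted p = 4.78e-06), more than Siglech itself.

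For the nucleotide receptors, Entpd1, the ectoenzyme that degrades ATP and ADP, rose by 0.83 (adjusted p = 0.00272), while Nt5e, which acts on AMP, was at -0.10 (adjusted p = 0.893). The Gi subunits Gnai2 and Gnai3 rose by 0.26 and 0.37 (adjusted p = 0.0374 and 0.00161), and the potassium channel gene Kcnk13 was at 0.18 (adjusted p = 0.591). Abhd12, a lysophosphatidylserine lipase that acts on the ligand of Gpr34, rose by 0.29 (adjusted p = 0.00492), and Abhd16a, which makes this lipid, was at -0.09 (adjusted p = 0.631). Gcnt1, a glycosyltransferase used to decorate PSGL-1, rose by 1.91 (adjusted p = 2.99e-05), and the tyrosine sulfation genes Tpst1 and Tpst2 were at -0.07 and 0.23 without a call.

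The selectins Selp and Sele and the fucosyltransferase Fut7 held at most 6 counts per library and were not tested. Bmp4, a growth factor that Olfml3 can bind, was at 0.37 (adjusted p = 0.601). From CPZ to RCV 7 of the 15 partners fell, and between RCV and CTL none was called, as for the members.

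Of 10 genes of the TGF-beta arm 4 rose in the CPZ group. These were the ligand gene Tgfb1 (2.25), the receptor genes Tgfbr2 (1.52) and Tgfbr1 (1.41), and Nrros (1.14), which anchors latent TGF-beta on microglia. The signal transducers Smad2, Smad3 and Smad4 lay between -0.00 and 0.06 and were not called, and Smad7 was at -0.29. Among other P2Y receptors P2ry6, a UDP receptor linked to phagocytosis, rose by 2.53, P2ry14 was at 1.04 (adjusted p = 0.0844) and P2ry1 at 0.01. None of these genes was called between RCV and CTL.

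Other homeostatic microglia genes followed the members. Of 18 such genes 17 were tested, and 14 were higher in the CPZ group, with a median log2 fold change of 1.41, from -0.11 for Crybb1 to 2.62 for Adora3. The transcription factor gene Sall1 rose by 0.75. The 13 disease-associated genes all rose, with a median of 2.96, from 1.05 for Csf1 to 8.38 for Cst7. Fcrls, at 3.41, was above this median, and the other 8 members were below it. In RCV mice 3 disease-associated genes (Clec7a, Itgax and Ccl6) and 1 other homeostatic gene (Csf3r, adjusted p = 0.0479) were still called higher than in CTL mice, against 0 of the 9 members.

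Several members are also expressed outside microglia, so markers of those cells were measured. Markers of plasmacytoid dendritic cells, which also express Siglech, summed to 0.192 to 1.05 CPM over all libraries, none of the 4 reached the filter, and Klk1 and Cd209d never exceeded 1 count. Platelet markers, for P2ry12, summed to 0.922 to 3.04 CPM, and the 1 tested, Itga2b, was at 0.11 (adjusted p = 0.886). Markers of pericytes and mural cells, for Olfml3, summed to between 139 and 186 CPM, and 0 of 4 were called.

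Border macrophage markers summed to 4.62 to 11.6 CPM in CTL libraries, 8.26 to 12.9 in CPZ libraries and 6.16 to 13.2 in RCV libraries. Of these 9 markers 2 were tested, and neither Mrc1 (0.71, adjusted p = 0.26) nor F13a1 (0.08, adjusted p = 0.942) was called. Blood monocyte markers summed to 0.734 to 2.55, 1.58 to 3.61 and 1.73 to 4.1 CPM, Ccr2 had at most 5 counts in a library, and the 1 marker tested, S100a4, rose by 1.84 (adjusted p = 0.00202). Neutrophil markers summed to at most 13.1 CPM and none was tested. The part of such cells in the levels of Cx3cr1 and Selplg, which monocytes also express, was not tested.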

How the data were processed

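Reads were processed by the authors, whose notes name STAR, RSEM and mm10 without versions, and whose paper names the RNASequest pipeline. The deposited values were unscaled estimated counts of each gene and TPM values made by the authors, beside a list of gene names and lengths. All 13 libraries were used, and 92 spike-in identifiers at 0 were left out. Of the 55401 gene identifiers 98.1% matched GENCODE M21, from which positions were taken. Motifs were searched in RefSeq promoter windows (GRCm38.p6).

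Estimated counts were rounded, filtered with filterByExpr and scaled by TMM. The robust quasi-likelihood F test of edgeR 4.0.16 was fitted to all libraries with 1 mean per group, and p-values were adjusted by Benjamini-Hochberg over 14985 genes (threshold 0.05). CPM use TMM-scaled library sizes, and log2-CPM a prior count of 2. Totals of 4605100 to 8197289 counts set the precision of low genes, so a CTL library held as few as 24 counts of Gpr34. Exact two-sided permutation tests compared single values per mouse (scipy 1.17.1). The labels do not say how mice with equal replicate numbers are related, and each mouse gave 1 library. The scripts were tested on simulated data.

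Alternatives were DESeq2 1.42.0 size factors and Wald test, limma 3.58.1 (voom, and log2(TPM + 1) or log2(TPM + 0.1) for genes reaching 1 TPM in 4 libraries, and log2(TPM + 1) for all genes above 0 TPM in any library), no count filter, only the 2 groups compared, the replicate number as a block, other reference genes, linear CPM, and each library left out. The reference without Coro1a was chosen after seeing the data. The members and gene lists were chosen with earlier results of these data known. Named are all members, reference genes and partners, the extremes of each other list, genes a count is broken down to, the gene most like each member, and overlapping or neighbouring genes; outside this rule, Sall1, Smad7, P2ry14 and the markers named were chosen after their values were seen. The fold changes and p-values of the paper, and its nuclei and spatial data, were not used here. A few genes of these lists are not reported here.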

Additional observations from a re-analysis of the deposited data

How the results depend on the processing

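The 9 rises from CTL to CPZ and the 9 falls from CPZ to RCV were called under all 22 alternatives run, except the fall of Siglech on TPM values. With each library left out in turn, 9, 0 and 9 members were called in CPZ against CTL, RCV against CTL and RCV against CPZ, and 6, 4 to 5 and 2 members lay below the reference genes. With all libraries, 95.2%, 71.8% and 0.287% of all genes lay below them in these contrasts. Fitting only the 2 groups compared called 2 members between RCV and CTL, and with the C1q genes as reference 7 members lay below it in RCV against CTL and 1 in RCV against CPZ. The share of all genes below the C1q genes was not calculated. The P2ry12 difference between RCV and CTL, 0.01, changed sign on log2(TPM + 1) with or without the filter (-0.042), on log2(TPM + 0.1) (-0.043) and without CTL replicate 3 (-0.064), CTL replicate 4 (-0.019) or RCV replicate 3 (-0.022), never with a call; it ran up to 0.062 without CTL replicate 2. Its remaining share was -0.070 without CTL replicate 3. The causes were not tested.

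Over all genes, 1522, 56 and 1050 were called in CPZ against CTL, RCV against CTL and RCV against CPZ. On log2(TPM + 1) without a filter these were 993, 16 and 477, and RCV against CPZ gave 584 and 503 on filtered log2(TPM + 1) and log2(TPM + 0.1). RCV against CTL gave 131 with DESeq2 and 16 with voom. With single libraries left out the counts were 1078 to 1680, 21 to 87 and 632 to 1170. The extremes came without RCV replicate 2 (21) and CPZ replicate 3 (87) for RCV against CTL, where leaving out CTL replicate 1, 3, 4 or 5 or RCV replicate 1 gave 26 to 33, and without CPZ replicate 1 (632) and replicate 2 (693) for RCV against CPZ.

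Replicate numbers did not pair the samples: over 12 same-numbered pairs the correlation of deviations ran from -0.228 to 0.171, with 3 over 0.1, and 1 of 13 libraries was closest to its own number. With the replicate block 9, 0 and 9 members and 1172, 42 and 755 genes were called. The lowest count of a member was 24, for Gpr34 in a CTL library.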

Other observations

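Summed over the 9 genes, the CPZ libraries held 401.5 to 812.5 CPM, the CTL libraries 156.1 to 187.8 CPM and the RCV libraries 201.7 to 227.6 CPM, so every RCV library was above every CTL library in this sum although 0 of 9 members was called between these groups. The mean log2-CPM of the members minus that of the 8 reference genes was between 0.28 and 0.52 in CTL libraries, between -0.15 and -0.03 in CPZ libraries and between -0.16 and 0.01 in RCV libraries. Relative to the reference, the RCV libraries overlapped with the CPZ libraries, and none reached the CTL range. Most genes also lay below their CTL range, because the reference itself had risen. Against it 95.2% of all genes tested lay lower in CPZ than in CTL libraries without overlap, and 71.8% lay lower in RCV libraries. The position of this mean below the CTL range is therefore not particular to the members. Between the RCV and CPZ libraries, where this mean overlapped, 88.8% of single genes lay higher in RCV libraries without overlap and 0.287% lower. No test was made on these sums, since the 9 genes were chosen with results of these data known.

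In neither of the 2 neighbouring pairs was the neighbour the most similar member. The member closest to P2ry12 over the 13 libraries was Tmem119 (r = 0.964), and its least similar member was its neighbour P2ry13 (r = 0.886). The member closest to Selplg was Fcrls (r = 0.958), not its neighbour Tmem119.

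In 27 groups of 4 or 5 libraries, 1 for each member and group, no library stood apart from the rest by Dixon's criterion at the 95% level.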
